A study of Mus musculus with 4 samples.

Results

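The replication-dependent histone genes of the mouse were taken as the protein-coding genes of the GENCODE M21 annotation whose symbols start with Hist1h, Hist2h, Hist3h or Hist4h. This rule found 67 of 21951 protein-coding genes. Of these, 6 encode linker histones (H1) and 61 encode core histones, namely 18 H2A, 18 H2B, 12 H3 and 13 H4 genes. Chromosome 13 carries 54 of them, chromosome 3 carries 10, chromosome 11 carries 2 and chromosome 6 carries 1.

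The study isolated small RNAs bound to MILI, a PIWI protein of male germ cells that carries piRNAs, from testes of C57BL/6 mice at 14 dpp. After immunoprecipitation, RNAs near 28 to 30 nt were cut from a gel and sequenced in 4 libraries, 2 from Tdrd9+/- and 2 from Tdrd9-/- mice. Tdrd9 encodes a Tudor domain helicase that acts with the mouse PIWI proteins. The table analysed here lists 4906138 distinct sequences, each with 1 genome position in build mm9, and carries neither a read count nor a library for any of them. All values below therefore describe the 4 libraries pooled, count distinct sequences and not reads, and give no comparison of the genotypes. Fewer cells of a type and less RNA per cell cannot be told apart in such bulk samples.

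Core histones form the nucleosome around which DNA is wound, and linker histones bind the DNA that enters and leaves it. The replication-dependent genes are transcribed in S phase, have no introns in their coding sequence and lie in clusters of many near-identical copies. Their mRNAs mostly end in a conserved stem-loop in place of a poly(A) tail: the stem-loop binding protein SLBP binds it, and the mRNA is cut a few bases after it.

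A listed sequence was assigned to a gene when it matched one of its transcripts exactly in the sense direction, and it was called the gene's own when no other annotated gene matched. For each of 9 leading genes the longest sequence is shown at the coding 5′ end that the most distinct listed sequences share, with the stretch that all sequences of that end hold in capitals. Positions are in mm9.
Hist1h1a, chr13:23855708-23855736, plus strand, 8 sequences: GGTGTCGGAGCTCATCGTGCAGgcagttt
Hist1h2aa, chr13:24026342-24026371, plus strand, 8 sequences: TACAAAGCGGGGTGGCAAGGCtcgtgccaa
Hist1h1d, chr13:23646994-23647022, plus strand, 7 sequences: TGCACCTGTGGAGAAGACACCTGtgaaga
Hist1h1t, chr13:23787954-23787983, plus strand, 8 sequences: TACGACGTGGAGAAGAACAACAGccgtatc
Hist1h2ba, chr13:24025806-24025835, minus strand, 8 sequences: TGAACTCCTTTGTGACAGACATCttcgagc
Hist1h2bb, chr13:23838719-23838748, plus strand, 7 sequences: TCTCTAAGGCGCAGAAGAAGGATGgcaaga
Hist1h4a, chr13:23852938-23852967, minus strand, 5 sequences: TAAGGTTCTCCGCGATAACATCCAGGgcat
Hist1h3a, chr13:23853835-23853864, minus strand, 5 sequences: TCATGCCCAAGGACATCCAACTGGCCcgcc
Hist1h2ab, chr13:23843007-23843036, plus strand, 9 sequences: TGGACGCGGAAAGCAGGGTGGCaaggcccg
Only ends in the coding sequence were considered for display, and some genes have an end in the 5′ UTR with as many or more sequences, such as Hist1h1t with 9. In 8 of the 9 the first base is T (U in the RNA), and in Hist1h1a it is G. Among coding ends, ties for the most sequences occurred in Hist1h1a, Hist1h2aa, Hist1h4a and Hist1h3a, where the most 5′ one is shown. Sequences of 1 end differ only at their 3′ end, by up to 9 nt in Hist1h2aa.

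The histone genes gave 4110 own sense sequences with 1863 distinct 5′ ends, which is 0.0838% of the list (exact 95% binomial interval 0.0812 to 0.0864%, counting error over distinct sequences only). At least 1 own sequence was listed for 60 of the 67 genes, against 72.9% of all protein-coding genes. At least 10 were listed for 49 of the 67, against 56.8% of all protein-coding genes. The median histone gene had 33 own sequences and 19.4 distinct 5′ ends per kb of its longest transcript. Over all protein-coding genes the medians were 20 sequences and 6.01 ends per kb. Summed over genes, the density was 29.0 ends per kb for the histone genes and 19.7 for all protein-coding genes, so the pooled values lay closer together than the medians.

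No listed sequence matched more than 1 histone gene. Each 27-nt stretch of a transcript was taken as a possible start and called gene-specific when no other annotated gene contained it. Only 59.1% of the histone starts were gene-specific, 90.6% in the linker and 50.4% in the core genes. By class the share was 30.3% for H3, 45.8% for H2A, 53.2% for H2B and 69.6% for H4. Counts for the core genes are thus counts over the unlike stretches of near-identical copies, and the list held no sequence from a stretch that histone genes share. Whether sequences with several genome positions were removed before deposit is not stated in the sources used here; such a step would by itself give 0 shared sequences and lower the count of every gene with copies.

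The 6 linker genes held 1405 of the own sequences, 34.2% (32.7 to 35.7%), and the 61 core genes held 2705. All 6 linker genes were represented, with a median of 143.5 own sequences and a range of 67 to 755. Among the core genes 54 of 61 were represented, with a median of 22 and a range of 0 to 336. Per kb of transcript the linker genes had 46.1 distinct 5′ ends and the core genes 24.5. Per kb of gene-specific starts the densities were 51.4 and 52.0. The share of gene-specific starts that were used as a 5′ end was likewise 5.09% (4.70 to 5.50%) in the linker and 5.08% (4.81 to 5.37%) in the core genes. These pooled values were near equal, but the classes were not alike in other summaries. The median gene had 54.9 ends per kb of gene-specific starts in the linker and 79.6 in the core class. In the 5′ UTR the densities on that scale were 51.4 and 162, in the coding sequence 156 and 178, and in the 3′ UTR 0.757 and 5.30. The linker 5′ UTR value rests mostly on Hist1h1d, whose annotated 5′ UTR of 1828 nt held 31 of the 108 ends. The other linker 5′ UTRs are 41 to 71 nt long and held the remaining ends, so that value does not describe them. Without Hist1h1a the share of linker starts used was 3.02% (2.71 to 3.35%). Hist1h1d weighs the other way. It holds 7084 of the 11915 linker gene-specific starts, 4783 of them past its stem-loop, and 1.54% of its starts were used. In the other linker genes the share ran from 3.21% in Hist1h1c to 37.8% in Hist1h1a. The near-equal pooled values thus depend on the long annotation of Hist1h1d, and the share without it was not computed.

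**Figure D1:**
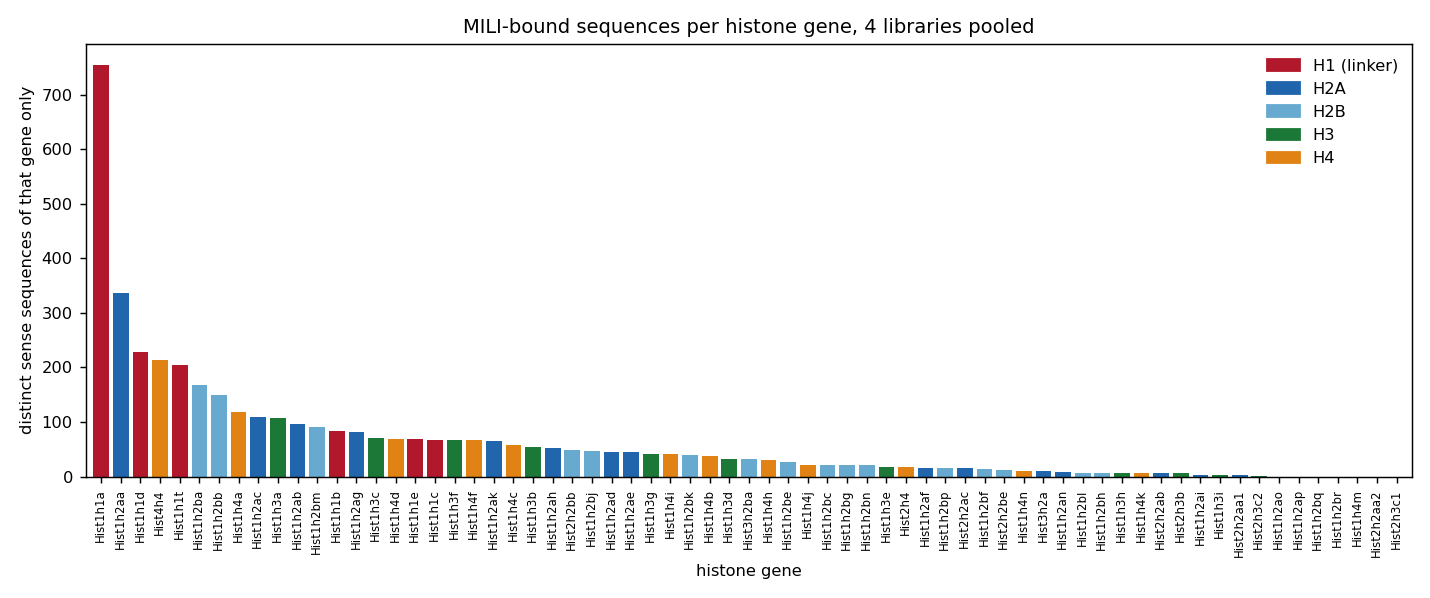
Distinct sense sequences that match only the named histone gene, 4 libraries pooled, in descending order and coloured by class. Hist1h1a stands at 755, Hist1h2aa at 336, and 7 genes at the right have none.

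Hist1h1a, a linker histone gene known to be active in testis, had the most own sequences of any histone gene, 755 at 269 distinct 5′ ends. That was 18.4% of all own histone sequences. Its 741-nt transcript carried 363 ends per kb, and none of the 21951 protein-coding genes had more. By number of sequences 536 protein-coding genes exceeded it. No antisense sequence was listed for Hist1h1a. Of its gene-specific starts 37.8% were a 5′ end. Its sequences covered chr13:23855535-23856273 on the plus strand.

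The other linker genes were less dense. Hist1h1t, the testis-specific linker histone of spermatocytes, had 204 own sequences at 94 ends, or 103 ends per kb. Hist1h1d, which encodes H1.3, had 228 sequences at 110 ends. Its annotated transcript is 7425 nt long, and the density over that length was 14.8 ends per kb. Hist1h1b, Hist1h1e and Hist1h1c, which encode H1.5, H1.4 and H1.2, had 83, 68 and 67 own sequences. Without Hist1h1a the linker share of own sequences was 19.4%.

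Among the core genes the testis-specific H2A and H2B genes stood first by density per kb of transcript. Hist1h2aa encodes the testis H2A variant and had 336 own sequences at 123 ends, 315 per kb of its 390-nt transcript. By density it was the second among all protein-coding genes. Hist1h2ba encodes the testis H2B variant, lies beside Hist1h2aa on the opposite strand and had 168 own sequences at 76 ends, 198 per kb of its 384-nt transcript. Its rank by density was 21. Of the gene-specific starts 38.2% were a 5′ end in Hist1h2aa and 39.2% in Hist1h2ba. On that scale Hist1h2ah, an H2A gene named after its values were seen, stood higher, with 51.5% of its 33 gene-specific starts. Together with Hist1h1t these testis variants held 708 own sequences, 17.2% of the total.

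Of the remaining core genes, Hist4h4 had 213 own sequences at 87 ends, Hist1h2bb had 149 at 60, and Hist1h4a had 118 at 53. Hist1h2ac followed with 109 sequences at 48 ends and Hist1h3a with 107 at 48. The 10 fullest genes together held 2387 own sequences, 58.1% of the total. Among the H2A genes Hist1h2ab had 96, among the H2B genes Hist1h2bm had 90, and among the H3 genes Hist1h3c had 71 and Hist1h3f 67. Hist1h4d, an H4 gene, had 69. By class, own sequences summed to 891 for H2A, 716 for H2B, 690 for H4 and 408 for H3.

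The 7 genes with no own sequence were Hist1h2ao, Hist1h2ap, Hist1h2bq, Hist1h2br, Hist1h4m, Hist2h2aa2 and Hist2h3c1. Gene-specific starts made up 0 to 7.18% of their transcripts, 87 starts in all, and 3 of them had none. Hist1h2bq and Hist1h2br, for example, shared 1228 starts with each other. In Hist2h3c1 all 1799 starts also lay in the overlapping non-coding gene Gm20634, and 640 of them in other histone genes. The data could therefore not show whether MILI-bound RNA came from these genes.

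By position, 1 stretch of chromosome 13 held most of the sequences. The 31 represented genes of chr13:23622958-24026718, which include 5 linker genes, had 3144 own sequences, 76.5% of the total. The 18 represented genes of chr13:21807634-22135270 had 601. In the first stretch 70.5% of starts were gene-specific and in the second 34.4%, and the part of this in the difference was not tested. The cluster at chr3:96024087-96074035 had 108 own sequences over 8 genes, and the pair at chr11:58762457-58769945 had 44. Hist4h4, alone on chromosome 6, had 213.

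Another 463 sense sequences matched a histone gene and a gene that overlaps it. Of these, 411 fell on Hist3h2a, an H2A gene, and on Trim17, whose annotation overlaps it, and 50 on Hist2h2bb, an H2B gene, and the long non-coding gene Gm42743. Counting did not tell such overlapping genes apart. The Hist3h2a sequences lay at chr11:58768200-58768692 and had 146 distinct 5′ ends. Of the 411, 149 began in the 5′ UTR of Hist3h2a, 253 in its coding sequence and 9 in its 3′ UTR, and 405 ended before its stem-loop motif. Trim17 had 13 own sequences elsewhere. Hist3h2a itself had 11 own sequences, all in its 3′ UTR, and Hist2h2bb had 48.

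Along the transcripts, the sequences came from the coding sequence and the 5′ UTR and seldom from the 3′ UTR. Of the distinct 5′ ends on the transcript with the longest coding sequence, 72.0% (69.9 to 74.0%) lay in the coding sequence, which makes up 43.2% of the length. Another 22.8% lay in the 5′ UTR, 7.54% of the length, and 5.21% in the 3′ UTR, 49.3% of the length. Per kb of gene-specific starts the densities were 169 in the coding sequence, 105 in the 5′ UTR and 4.04 in the 3′ UTR. Of the 4059 gene-specific starts in 5′ UTRs, 2103 were linker starts, most of them in the 1828-nt 5′ UTR of Hist1h1d with its 31 ends. The gap between coding sequence and 5′ UTR thus depends on that annotation. In the core genes alone the values were 178 and 162. Per kb of transcript the densities over all histone genes were 90.1 in the 5′ UTR, 49.6 in the coding sequence and 3.15 in the 3′ UTR. In the other 21884 protein-coding genes with a coding sequence the order was the reverse per kb, 10.2 ends in the 5′ UTR, 17.4 in the coding sequence and 23.0 in the 3′ UTR. The 3′ UTR held 48.5% of their ends. Much of the annotated histone 3′ UTR lies past the stem-loop motif described below, 23782 nt over the 45 genes that have it. The histone 3′ UTR lengths and densities include this part, although most of these mRNAs are cut a few bases after the stem-loop. In the linker genes 81.6% of ends were coding and 5 ends, 0.816%, lay in the 3′ UTR.

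**Figure D2:**
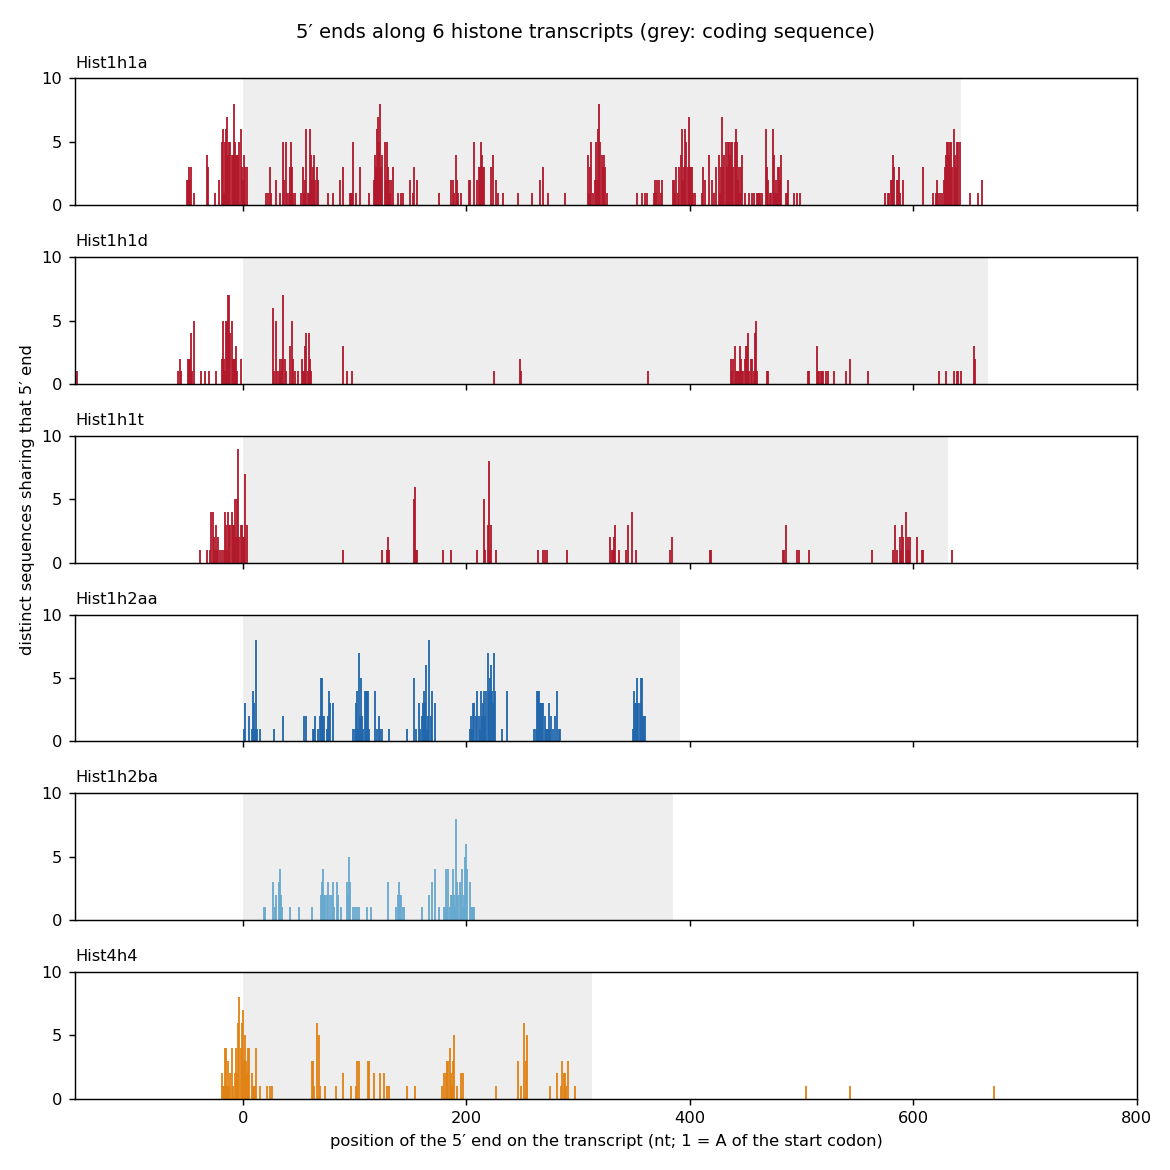
Distinct sequences at each 5′ end (y axis) along the transcripts of 6 of the fullest histone genes, with position 1 at the A of the start codon and the coding sequence in grey. Hist1h1a has the most ends of the 6, and in each gene the ends lie in groups with gaps between them.

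The plot of ends along 6 transcripts shows how the leading genes differ. In Hist1h1a 236 of 269 ends were coding, 30 lay in its 51-nt 5′ UTR and 3 in its 3′ UTR. In Hist1h1t 63 ends were coding and 30 lay in its 52-nt 5′ UTR. In Hist1h1d 79 ends were coding, 31 lay in the 5′ UTR and none in the 4931 nt annotated as 3′ UTR. The annotated transcripts of Hist1h2aa and Hist1h2ba hold coding sequence only. Within 200 nt beyond them on the same strand lay 28 upstream and 61 downstream sequences for Hist1h2aa, and 107 upstream and 6 downstream for Hist1h2ba. These flanking sequences were not counted above.

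The stem-loop was searched as a 16-nt motif on the sense strand after the stop codon: GG, any 2 bases, CTT, any 1 base, T, any 1 base, AG, any 2 bases and CC. It was found in 45 of the 67 genes, 22 to 59 nt after the stop codon, at a median of 32 nt. Of the 22 without it, 15 have less than 16 nt of annotated 3′ UTR. Among the 18102 protein-coding genes with a full 150-nt window after the stop codon, 28 (0.155%) held the motif, and 23 of these 28 were histone genes of the set. No other motif was searched. Of the 4 forms shown, Hist1h1c carries the most frequent one, and the others show how stem and loop vary between genes.
Hist1h1c: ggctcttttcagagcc
Hist1h1t: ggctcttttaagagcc
Hist1h4i: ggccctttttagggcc
Hist1h4j: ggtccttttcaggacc

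In the 45 genes with the motif, the listed sequences stopped at the stem-loop. Of their 2472 own sequences 2379 ended before it, 44 ended inside it, 1 held all of it and 48 began after it. The single sequence over the whole motif came from Hist1h2ab, was 32 nt long and ended 3 nt past the motif. The part before the motif had 119 distinct 5′ ends per kb of gene-specific starts and the part after it 1.70. These parts were 23718 and 23782 nt long over all 45 genes. Of the gene-specific starts from which a 27-nt sequence would hold the whole motif, 384 in number, none was a 5′ end. Of the 384 gene-specific starts just upstream, 12 were.

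**Figure D3:**
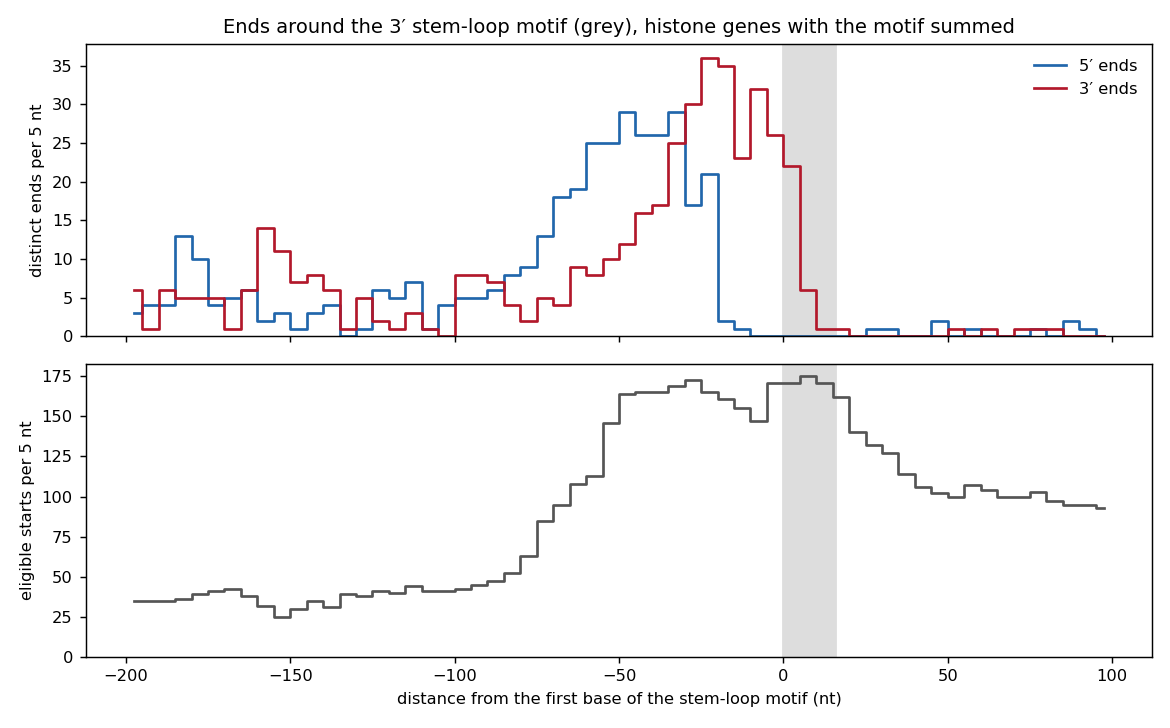
Upper panel, distinct 5′ and 3′ ends of own sequences per 5 nt around the first base of the stem-loop motif (grey) in the histone genes that have it. Lower panel, gene-specific (eligible) starts per 5 nt, which stay at their level across the motif while 5′ ends stop before it.

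From 50 nt to 1 nt before the motif there were 151 distinct 5′ ends and 252 distinct 3′ ends. Within the motif there were 0 and 29. In the 50 nt after it there were 5 and 3. The ends after the motif numbered 33 in 11 genes, and Hist1h4i with 11 and Hist3h2a with 8 held 19 of them. At least 100 nt of annotated transcript followed the motif in 23 genes. Of these, 11 had an end there. Hist1h1d, whose annotation runs 4884 nt past the motif, had 110 ends before it and none after it.

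In first base, the histone sequences differed from those of other genes. A 5′ U, the usual first base of MILI-bound piRNAs, began 47.2% (45.6 to 48.7%) of own histone sequences and 69.3% of the own sequences of all protein-coding genes. The remaining histone sequences began with A in 21.2%, C in 18.4% and G in 13.2%. By class, 5′ U made up 42.4% (39.8 to 45.1%) in H1, 42.3% (39.0 to 45.6%) in H2A, 52.5% (48.8 to 56.2%) in H2B, 56.6% (51.7 to 61.5%) in H3 and 52.0% (48.2 to 55.8%) in H4. Over distinct 5′ ends the histone share was 38.7%. Counted over distinct ends too, positions 11 to 20 held 17.4% U on average.

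The U content of the transcripts was measured beside this difference, by region. At coding ends 32.5% of the histone 5′ ends were U, where the same coding sequences, weighted by their number of ends, held 14.2% U, a ratio of 2.29. In the other protein-coding genes the values were 58.4% and 21.4%, a ratio of 2.73. For the 5′ UTR the ratio was 1.43 in the histone genes, with 52.9% against 37.1%, and 3.03 in the others, with 60.3% against 19.9%. For the 3′ UTR it was 2.10, with 61.9% against 29.5%, and 2.30, with 66.3% against 28.8%. The histone genes thus held less U than the others in the coding sequence and more in the 5′ UTR, while their 5′ U share was lower in both. In the 3′ UTR the histone share rested on 97 ends, and its interval of 51.4 to 71.5% held the 66.3% of the others. The part of base composition in the difference was not tested.

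Gene by gene, 48 of the 49 histone genes with at least 10 own sequences had more 5′ U than U at their gene-specific starts. The exception was Hist1h2bp, an H2B gene, with 20% against 24.5% over 15 sequences. The share ranged from 13.3 to 100%, with a median of 50.0%. Of the densest genes, Hist1h2aa had 31.3% (26.3 to 36.5%), Hist1h1a 37.6% (34.1 to 41.2%) and Hist1h2ba 43.5% (35.8 to 51.3%). Hist1h1t had 60.8% (53.7 to 67.5%) and Hist4h4 56.8% (49.9 to 63.6%). The intervals of Hist1h1a and Hist1h1t did not overlap, and their transcripts held 17.3% and 20.7% U. These intervals count sequences, 755 at 269 ends and 204 at 94 ends, and sequences of 1 end share their first base. The intervals are therefore too narrow to judge a difference between the genes, which was not tested.

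**Figure D4:**
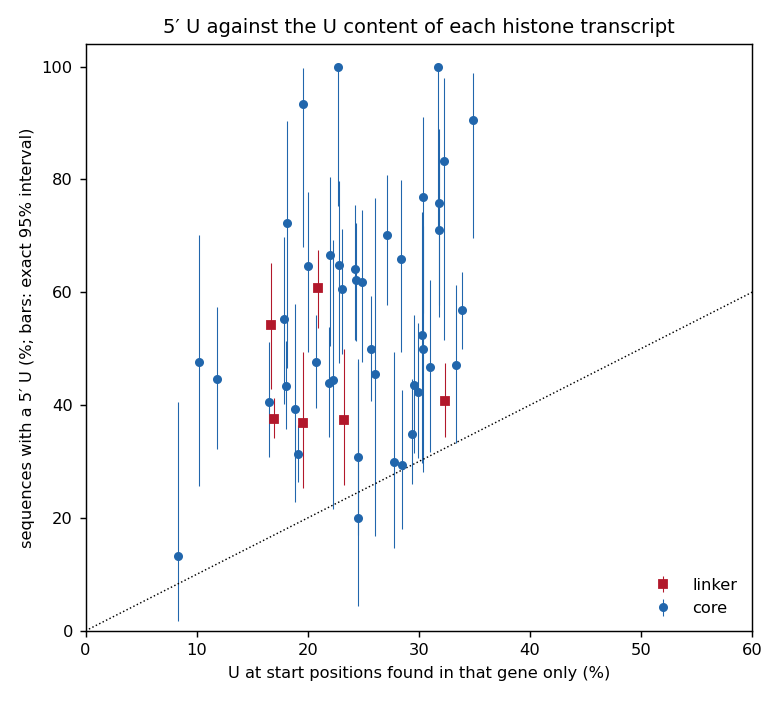
Share of own sequences with a 5′ U against the share of U at the gene-specific starts, for each histone gene with at least 10 own sequences. Bars are exact 95% binomial intervals, the dotted line marks equal shares, and 48 of 49 points lie above it.

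In length, own histone sequences averaged 27.2 nt (SD 1.59), and 66.7% were 26 to 28 nt long, against 77.0% of the whole list. The histone ends carried more length forms. Each distinct 5′ end had 2.21 listed sequences on average in the histone genes, 1.56 over protein-coding genes and 1.42 over the whole list. Ends with a single sequence made up 46.8% in the histone genes (44.5 to 49.0%) and 66.8% over protein-coding genes. Hist1h1a had 2.81 sequences per end, Hist1h2aa 2.73, Hist4h4 2.45 and Hist1h2ba 2.21. Hist1h1a and Hist1h2aa were also the densest genes per kb of transcript. Without read counts, the part of sampling depth in these length values was not tested.

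Within the coding sequence, 39.9% of ends lay at the third base of a codon, 33.2% at the second and 26.9% at the first. Gene-specific starts were spread evenly, 33.4%, 33.4% and 33.3%. The third and the second base were U in 16.8% and 16.2% of the gene-specific starts and the first in 10.2%. The classes differed in this. In the linker genes U made up 19.1% at the third and 10.5% at the second base, with 41.8% and 31.4% of ends. In the core genes U made up 15.2% at the third and 20.2% at the second base, with 38.7% and 34.3% of ends.

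Several core genes had ends at the same coding position. The genes of a class with the same coding length can be laid base on base, and a shared position then means that unlike copies each gave a sequence from there. At position 68 of the H4 coding sequence, 8 genes had an end, where 9 had a gene-specific start. The first 27 bases from that position are shown for these 8 genes because they carry the pattern, with the bases that differ between genes in capitals. The 5′ end is in mm9.
Hist1h4a, chromosome 13, 23852959, minus: tCcgCgaTaacatccagggcatCacCa
Hist1h4c, chromosome 13, 23790251, minus: tCcgTgaTaacatccagggcatTacCa
Hist1h4f, chromosome 13, 23643445, minus: tTcgCgaTaacatccagggcatCacCa
Hist1h4h, chromosome 13, 23623051, plus: tGcgTgaCaacatccagggcatCacGa
Hist1h4i, chromosome 13, 22133125, minus: tTcgGgaCaacatccagggcatCacCa
Hist1h4j, chromosome 13, 21827032, plus: tGcgCgaCaacatccagggcatCacGa
Hist1h4k, chromosome 13, 21842307, minus: tGcgCgaTaacatccagggcatCacCa
Hist4h4, chromosome 6, 136752833, minus: tCcgCgaCaacatccagggcatTacCa
All 8 begin with T, and each had 1 to 5 listed sequences at that end. The genes differ at 5 of the 27 bases.

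The same held at the start codon, whose second base is T. At coding position 2 an end was listed for 7 H2B genes, where 10 had a gene-specific start. The counts were 7 and 8 for H4, and 5 and 6 for H2A. The H2B genes are shown in the same way, since their copies differ at 8 of 27 bases and still share the end.
Hist1h2bb, chromosome 13, 23838665, plus: tgccAgaGccTTcTaagtcTgcAccAg
Hist1h2be, chromosome 13, 23677824, minus: tgccTgaGccAGcCaagtcCgcTccCg
Hist1h2bf, chromosome 13, 23666058, minus: tgccTgaGccTGcTaagtcCgcTccCg
Hist1h2bg, chromosome 13, 23663303, plus: tgccCgaGccTGcGaagtcCgcTccTg
Hist1h2bl, chromosome 13, 21808011, minus: tgccTgaGccCGcCaagtcCgcTccCg
Hist1h2bm, chromosome 13, 21813968, plus: tgccTgaGccAAcGaagtcCgcTccCg
Hist1h2bn, chromosome 13, 21845993, plus: tgccTgaAccCGcTaagtcCgcTccCg
The number of listed sequences at this end ran from 1 in Hist1h2bb and Hist1h2bl to 9 in Hist1h2bn. Hist1h2bn had 21 own sequences in all.

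**Figure D5:**
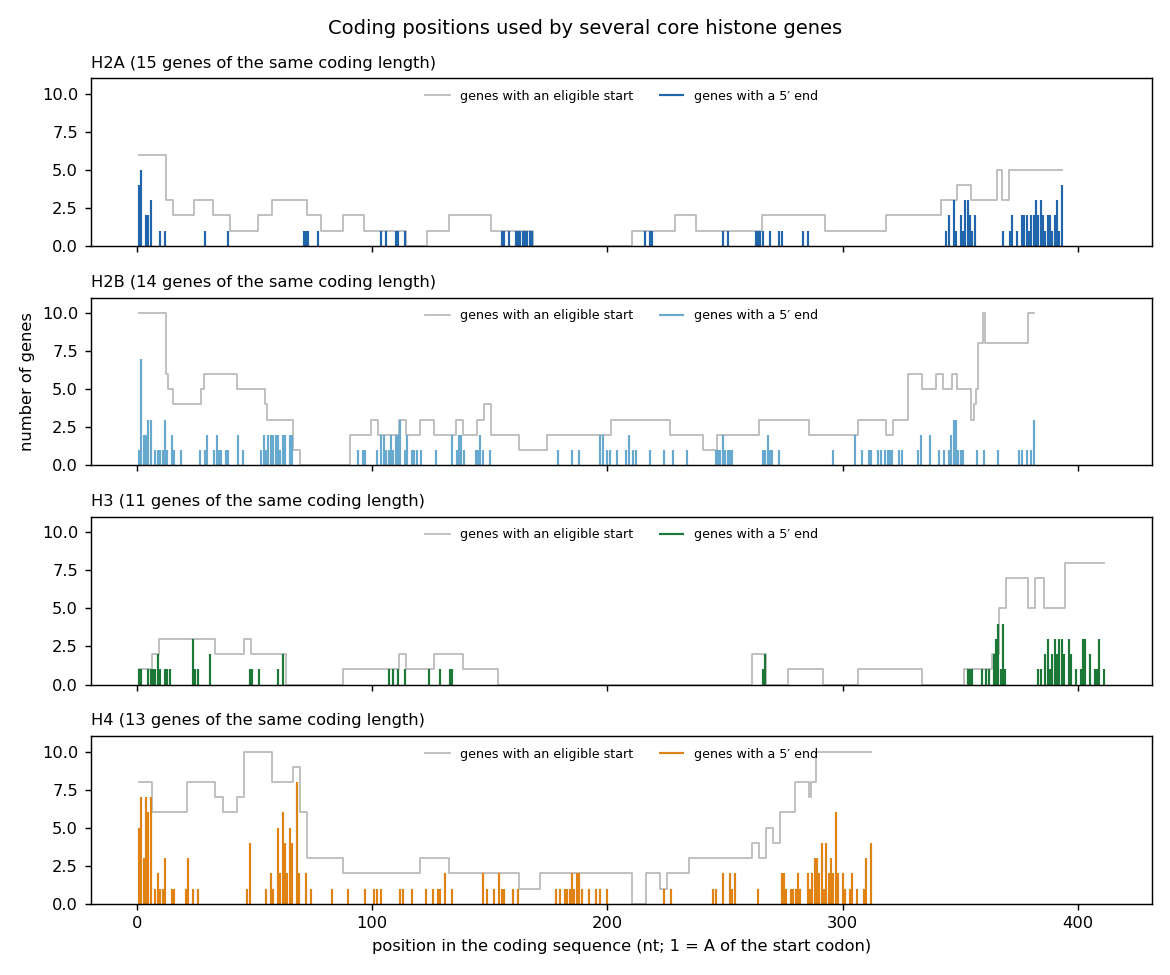
Number of core histone genes with a 5′ end (coloured) and with a gene-specific start (grey) at each position of the coding sequence, for genes of the same coding length in each class. The highest bars stand at position 68 of H4, with 8 genes, and at position 2 of H2B and positions 2, 4 and 6 of H4, with 7 each.

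Over the whole coding sequence, ends in at least 3 genes occurred at 23 positions in H4, 12 in H3, 10 in H2A and 8 in H2B. Positions at which at least 3 genes had a gene-specific start numbered 177, 72, 90 and 205. The number of genes with a gene-specific start falls in the middle of each coding sequence, as the plot of coding positions shows. Shared ends in that stretch could seldom have been seen.

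Antisense sequences were few. The list held 75 for the histone genes, 1.61% (1.27 to 2.02%) of sense and antisense sequences, against 6.33% over all protein-coding genes. They came from 20 of the 67 genes, and 48.0% of all protein-coding genes had at least 1. These shares of genes were not adjusted for transcript length or for stretches that near-identical copies share. Hist1h1c had 17, Hist3h2a 13 and Hist1h1d 8, and none matched more than 1 histone gene. Of the 75, 20 lay wholly past the stem-loop motif. A 5′ U began 61.3% (49.4 to 72.4%) of the antisense sequences.

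In the ping-pong cycle, in which PIWI proteins cut transcripts opposite each other's piRNAs, sense and antisense piRNAs overlap by 10 nt at their 5′ ends. Sense and antisense histone sequences, those shared with Trim17 included, formed 14 such pairs. Other overlaps of 1 to 20 nt gave 10.8 pairs on average and 14 at most, so an excess at 10 nt was not detectable with so few antisense sequences. Pairs from Hist1h2aa and Hist4h4 are given, with the 10-nt overlap in capitals.
Hist1h2aa sense, chr13:24026614-24026641: ACAAGTTGCTtggccgcgtgaccatcgc
Hist1h2aa antisense, chr13:24026597-24026623: AGCAACTTGTtgagctcctcgtcgttg
Hist4h4 sense, chr6:136752590-136752616: CCGCACTCTGtacggcttcggcggcta
Hist4h4 antisense, chr6:136752607-136752635: CAGAGTGCGGccctggcgcttgagcgcgt
Neither of the pairs shown has a member that begins with T, whereas 10 of the 14 pairs do. An A at position 10 of the sense sequences, the partner of a 5′ U in ping-pong, occurred at 26.5% of distinct histone 5′ ends, against a mean of 27.6% A at positions 11 to 20 of the same ends. Phased piRNAs follow each other head to tail. The distance of 1 nt from a 3′ end to the next 5′ end occurred in 285 pairs, within the 259 to 303 pairs at distances of 2 to 20 nt.

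Genes that process histone mRNA were also represented. All 11 genes of that list had at least 10 own sequences, against 56.8% of all protein-coding genes, with a median of 28.9 ends per kb against 6.01 over all protein-coding genes. Lsm11, a subunit of the U7 snRNP that cuts histone pre-mRNA, had 1359 own sequences, and Lsm10, its partner, had 52. Casp8ap2 (FLASH), which binds Lsm11, had 710, and Npat, the activator of histone transcription, had 248. Slbp had 112, the exonuclease Eri1 259 and Zfp473, a U7 snRNP-associated zinc finger protein, 256. Of the cleavage factors, Cpsf3 had 246, Cstf2 135, Sympk 132 and Cpsf2 88. Their sequences began with U in 69.7% (68.2 to 71.2%), near the 69.3% of all protein-coding genes and above the 47.2% of the histone genes.

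Replacement and variant histones are mostly made from mRNAs with poly(A) tails and not only in S phase. At least 10 own sequences were listed for 9 of these 14 genes, near the 56.8% of all protein-coding genes. Their median was 12.9 ends per kb. The fullest were H1f0 with 191, H2afv with 144 and H2afx with 112, while H1fnt and Hils1, linker histones of spermatids, had none and H3f3a had 1. Their 5′ U share was 58.7% (55.3 to 61.9%). Histone chaperones reached at least 10 in 9 of 9 genes, against the same 56.8%, with a median of 33.4 ends per kb. The fullest were Chaf1a, a subunit of the chromatin assembly factor, with 1667 and Nasp, a histone chaperone, with 611. Supt16 and Ssrp1, the subunits of FACT, had 209 and 133, and Daxx, an H3.3 chaperone, had 195. Chaf1b, Asf1b, Hira and Asf1a had 52, 50, 41 and 40. S-phase genes reached at least 10 in 15 of 15, again against 56.8%, with a median of 21.9 ends per kb. The fullest were Ccna2 with 262 and the helicase subunits Mcm5 and Mcm7 with 215 and 199, and the emptiest were Pcna with 30, Ccne1 with 39 and Pola1 with 53.

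The labelled tissue was checked by its marker genes. Germ cell markers had at least 10 own sequences in 5 of 5 genes, against 56.8% of all protein-coding genes, namely Dazl with 288, Kit with 223, Stra8 with 211, Sycp3 with 199 and Ddx4 with 149. The 4 Sertoli cell markers had 62 in all, with 27 for Sox9, 21 for Gata4 and 7 each for Amh and Wt1. The Leydig cell markers Cyp17a1, Hsd3b1 and Insl3 had none. Of the spermatid markers Tnp1 had 23, and Prm1, Prm2 and Tnp2 had none.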

How the data were processed

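Small RNAs bound to MILI were sequenced in 4 libraries of mouse testis at 14 dpp. The authors deposited 1 table of distinct sequences with chromosome, start, end and strand, and build mm9 is given per the submitters' processing notes. The sources used here name no aligner and no filter. The deposited columns hold genome positions and no read count, so library depth is unknown, the genotypes could not be tested against each other, and intervals cover counting error over distinct sequences only. Each distinct sequence weighs the same whatever its abundance.

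Every sequence was matched exactly, on both strands, to 141767 GENCODE M21 transcripts (python 3.11.15, numpy 2.4.6, pandas 2.3.3). A gene's own sequences matched no other gene in sense. Gene-specific starts were 27-nt stretches of the transcript with the longest coding sequence that occur in no other annotated gene. A stretch elsewhere in the genome was not examined. Binomial intervals are exact (Clopper-Pearson, 95%, scipy 1.17.1). Those of 5′ U shares of sequences are too narrow, because sequences of 1 end share their first base. The matching was tested on simulated data: 400 of 400 planted sequences were found and 0 of 400 random ones matched.

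The histone genes, the gene lists and the tests were chosen with earlier results of these data known. Genes named were the 10 fullest, the 3 fullest of each class, Hist1h1t, Hist1h2aa and Hist1h2ba, the 2 with the most shared and the 3 with the most antisense sequences, and those with none. From lists of up to 12 genes all were named, and from longer ones the fullest 3 and emptiest 3. Other genes, including those shown for the stem-loop and for shared coding positions, were named after their values were seen.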

Additional observations from a re-analysis of the deposited data

How the results depend on the processing

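Counting distinct 5′ ends in place of sequences gave 1863 in place of 4110 and a 5′ U share of 38.7% in place of 47.2%. Leaving out Hist1h1a lowered the linker share to 19.4% from 34.2% and, as an alternative chosen after seeing the data, the share of linker gene-specific starts used to 3.02% from 5.09%. It also raised the 5′ U share to 49.3% and lowered the coding share of ends to 69.3% from 72.0%. Leaving out Hist1h1d, which holds 7084 of the 11915 linker gene-specific starts, was not computed. The median of 19.4 ends per kb became 76.0 per kb of gene-specific starts, an alternative chosen after seeing the data in place of the planned one over unique stretches of the genome, which was not run without a genome sequence. The other 18 recomputed values, for sequences of 24 to 31 nt, the transcript with the longest coding sequence or sequences that also match another gene, among others, moved by less than their interval or by less than 1.5 times for counts. No paired analysis was possible because the list pools the libraries and gives no count for any of them. With distinct sequences only, abundance could not be measured, and identical stretches of near-identical copies could not be assigned to a gene.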
